A study of Mus musculus with 6 samples.

Results

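The integrins and laminins were followed in mouse mesenchymal stem cell cultures exposed to a terahertz laser. Members were selected by gene symbol, as the integrin alpha chains (Itga followed by a number or letter), the integrin beta chains (Itgb followed by a number) and the laminin alpha, beta and gamma chains. With 1 probe set per gene, the brightest over the 6 arrays, the rule found 34 of 18193 genes, which were 24 integrins and 10 laminins read by 73 probe sets in all. Itga11 and Itgad were not analysed here.

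The irradiated group was 3 cultures of commercial mouse mesenchymal stem cells exposed for 2 h to a continuous-wave laser at 2.52 THz (118.8 µm). The control group was 3 cultures, each of which stood next to an irradiated culture in the same experiment without irradiation. Every culture of either group had been given rosiglitazone (1 µM), insulin (5 µg/ml), isobutylmethylxanthine (100 µM) and dexamethasone (1 µM) 48 h earlier, a cocktail known to promote fat cell formation, and was held at 26 to 27 °C. RNA was taken directly after exposure and read on 1 Affymetrix array per culture, and the question asked of the members was whether their transcripts were altered right after exposure. No strain, donor or passage is named in the labels, and whether the 3 experiments used separate isolates of cells is not stated, so p-values measure the spread between these cultures, which may be technical.

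Integrins are receptors made of an alpha and a beta chain that span the cell membrane and tie the matrix, or another cell, to the actin skeleton inside. Laminins are secreted trimers of an alpha, a beta and a gamma chain that form the core of basement membranes and are bound by some of those integrins. Fat cells are each wrapped in a basement membrane, and the integrins of a cell differ with its lineage, the Itgb2 family being made by white blood cells and the Itgb1 and Itgav families by most adherent cells.

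To show where the results lie in the genome, the promoter windows of 4 members are printed, chosen because their genes were bright stromal chains (Itgb1, Itgav), a bright laminin (Lamb1) or a myeloid chain (Itgam). They are RefSeq sequences of build GRCm38.p6 from 250 bases before to 50 after an annotated gene start, all on the plus strand, at chr8:128685404-128685703 (Itgb1), chr2:83724147-83724446 (Itgav), chr12:31265043-31265342 (Lamb1) and chr7:128062390-128062689 (Itgam). Capitals mark GAGGAA, the core letters bound by the myeloid factor PU.1, and GGGCGG, the GC box bound by Sp1, on either strand, where they appear as TTCCTC and CCGCCC. The motifs do not overlap in these windows.
Itgb1: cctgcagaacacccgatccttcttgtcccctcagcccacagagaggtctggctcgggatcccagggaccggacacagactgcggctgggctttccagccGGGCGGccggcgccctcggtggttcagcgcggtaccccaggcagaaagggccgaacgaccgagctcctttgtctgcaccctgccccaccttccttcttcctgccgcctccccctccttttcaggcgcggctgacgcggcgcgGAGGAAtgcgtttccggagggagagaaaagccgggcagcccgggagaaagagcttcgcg
Itgav: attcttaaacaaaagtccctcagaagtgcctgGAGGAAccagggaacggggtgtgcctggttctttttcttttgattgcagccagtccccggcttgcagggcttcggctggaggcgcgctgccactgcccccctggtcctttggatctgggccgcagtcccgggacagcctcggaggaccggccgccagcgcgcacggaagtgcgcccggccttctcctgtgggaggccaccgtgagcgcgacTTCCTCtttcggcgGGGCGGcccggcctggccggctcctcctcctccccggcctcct
Lamb1: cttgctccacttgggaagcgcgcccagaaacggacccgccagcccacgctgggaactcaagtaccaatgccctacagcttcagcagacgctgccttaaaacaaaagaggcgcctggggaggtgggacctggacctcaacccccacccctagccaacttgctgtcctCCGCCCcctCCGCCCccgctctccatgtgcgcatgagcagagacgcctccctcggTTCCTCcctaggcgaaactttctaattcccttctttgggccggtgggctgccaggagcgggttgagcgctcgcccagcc
Itgam: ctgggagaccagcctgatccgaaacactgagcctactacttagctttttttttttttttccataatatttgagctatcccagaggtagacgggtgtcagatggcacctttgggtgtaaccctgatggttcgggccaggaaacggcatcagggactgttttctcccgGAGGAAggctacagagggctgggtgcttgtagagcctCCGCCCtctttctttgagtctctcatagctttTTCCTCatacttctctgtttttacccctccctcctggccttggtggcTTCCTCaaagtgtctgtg

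The Itgam window held 3 matches to the PU.1 core letters, against 1 in Itgb1, 2 in Itgav and 1 in Lamb1. The window of the other myeloid chain, Itgax, held 0 and that of the platelet chain Itga2b held 2, and 28.3% of all 32851 windows in the table held at least 1. GC boxes numbered 1 in Itgam, 1 in Itgb1, 1 in Itgav and 2 in Lamb1, with 35.7% of all windows holding at least 1. The Itgam window had 6 CpG dinucleotides and a GC content of 50.3%, whereas Itgb1 had 27 (67.3%), Itgav 24 (67.3%) and Lamb1 18 (63.7%), around a median of 7 CpG and 52.7% over all windows. Of the 34 members 22 had a window in the table. A letter match describes the window and is not a measured binding site.

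All 6 arrays had nearly the same distribution of values, with medians between 5.02 and 5.05 in irradiated and 5.01 and 5.04 in control cultures, on the log2 scale of the deposited values. Quantile normalization between arrays, part of the deposited processing, makes distributions alike, so this says nothing about array quality. Arrays carry no read depth, and precision is limited by their small number. The control of experiment 3 stood apart in RNA quality, since its 3′ minus 5′ difference for actin was 0.68, against 0.50 to 0.57 in the 3 irradiated and 0.54 in the other control cultures. For Gapdh the difference was 0.11 on that array and between -0.10 and -0.08 on the 5 others. The 3′ probe set for 18S ribosomal RNA read 11.82, 11.60 and 11.29 in irradiated cultures of experiments 1 to 3, against 11.95, 11.88 and 11.97 in their controls, with no overlap, and the part of RNA quality in the results was not tested. Although the labels name only mesenchymal stem cells, marker genes showed stromal, fat-cell and macrophage transcripts in every culture. Of 8 measured stromal markers 7 reached the median gene level of 6.46, with Col1a2 brightest (13.69) and Thy1 dimmest (3.88), as did 4 of 4 fat-cell markers (Fabp4 14.36, Pparg 9.88). All 9 of 9 macrophage markers reached it (Lyz2 14.17, Adgre1 10.22) as did 3 of 3 general leukocyte markers (Laptm5 11.86, Coro1a 8.06). T cell (Cd3e 5.46, Cd3g 3.00), B cell (Cd79a 3.85, Ms4a1 3.27), endothelial (Kdr 5.59, Tek 2.90) and skeletal muscle markers (Ckm 5.32, Myog 3.53) had none there, and the epithelial list had 1 of 5 (Epcam 7.53, Cdh1 2.47).

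The members were spread over the whole range of levels, at about the share of all genes above the median. Of the 34 members 16 lay at or above the median gene level, 11 of 24 integrins and 5 of 10 laminins, where 9099 of 18193 genes did. The levels that follow are RMA log2 values, means over the 6 arrays. Since probes differ in brightness for the same amount of RNA, a level says only how a gene sits among all genes measured, and gives no order or ratio between genes.

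Among the beta chains, 3 of 8 were above the median gene. Itgb1, the shared partner of most alpha chains, stood above 93.6% of genes (level 10.69), Itgb5, which pairs with Itgav to bind vitronectin, above 94.4% (10.87), and Itgb2, the beta chain of leukocyte integrins, above 93.3% (10.64). Below the median were Itgb8, a partner of Itgav that helps to activate latent TGF-beta (6.11), Itgb7, the lymphocyte chain that pairs with Itga4 or Itgae (5.35), Itgb3, the beta chain of the platelet fibrinogen receptor and of a vitronectin receptor (5.00), Itgb4, the hemidesmosome chain that pairs with Itga6 (4.75), and Itgb6, an epithelial partner of Itgav (2.76). The 2 epithelial beta chains, Itgb4 and Itgb6, were thus both below the median.

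Each ligand class of alpha chains had 1 member or more above the median. Of the chains that bind the RGD motif of fibronectin and vitronectin, Itgav stood above 94.4% of genes (10.87), while Itga8, the nephronectin receptor chain (6.82), and Itga2b, the platelet chain (6.92), lay just above the median and Itga5, the main fibronectin receptor chain, just below it (6.10). Of the laminin-binding chains, Itga6 stood above 79.1% of genes (8.94), with Itga3 at 6.01 and Itga7, known from skeletal muscle, at 5.17. Of the collagen-binding chains, Itga1 stood at 7.66, with Itga10, known from cartilage, at 4.99 and Itga2 at 4.77. Itga9, a receptor chain for tenascin and other matrix ligands, stood at 7.34 and Itga4, which binds Vcam1 and fibronectin and is made by blood and stromal cells alike, at 5.25.

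By their brightest probe sets, neighbouring members lay on different sides of the median gene. Itga1 and Itga2 lie next to each other with no protein-coding gene between them, and Itga1 was above the median (7.66) but Itga2 below it (4.77). The second Itga1 probe set, at 4.81, was below the median too, so this contrast depends on the probe set. The myeloid chains Itgam and Itgax are also neighbours, with Itgam above the median (7.85) and Itgax below it (4.66).

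Laminin genes above the median by their brightest probe sets included chains of all 3 kinds, as a trimer needs. Second probe sets of Lama4 (3.82), Lama3 (4.18) and Lamc1 (5.06) were below the median gene. Lamb1 had other probe sets above it (10.05 and 9.04) and another below (3.19). Lamb1, the broadly made beta chain, stood above 97.7% of genes (11.82), with Lamb2 at 7.42 and the epithelial chain Lamb3 at 4.01. Of the alpha chains, Lama4, found in basement membranes of vessels, muscle and fat, stood at 8.76 and Lama3, known from epithelia, at 6.67, whereas Lama2, the muscle and nerve chain (5.87), Lama5, a widespread chain (5.70), and Lama1, the embryonic chain (3.49), were below the median. Lamc1, the gamma chain of most laminins, stood at 7.60 and Lamc3 at 4.07.

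**Figure D1:**
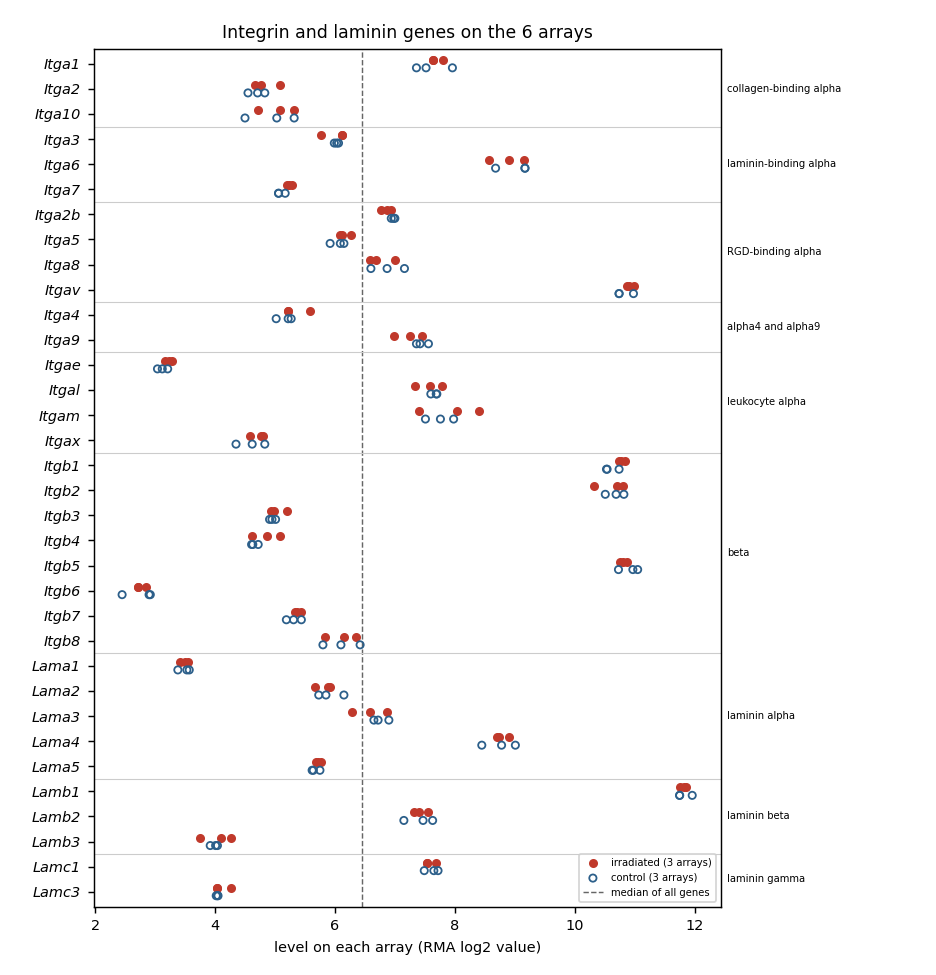
RMA log2 values (horizontal axis) of the 34 integrin and laminin genes in irradiated (filled red points, 3 arrays) and control cultures (open blue points, 3 arrays), grouped by role from top to bottom, with the median gene level of 6.46 as a dashed line. Of the 34 genes 16 have their mean at or right of the line, and the points of the groups overlap or touch for every gene but Itga7.

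Both leukocyte and stromal chains were found above and below the median gene. Of 6 measured leukocyte chains 3 were at or above it (Itgb2, Itgam and Itgal), and of 14 stromal and broadly made chains 7 were, shares at the background of all genes that were not compared with each other. These counts rest on the brightest probe sets. Other probe sets of Itgal (4.25), Itga1 (4.81), Itga8 (3.76), Itga9 (5.98 and 4.81) and Itgav (5.63 or lower) were below the median gene. Itgb1, Itgb5 and Itga6 had other probe sets above it. Itgal and Itgam are the alpha chains of the leukocyte receptors LFA-1 and Mac-1, each paired with Itgb2. The rest were Itgb7, Itgax, known from dendritic cells and macrophages, and Itgae of lymphocytes in epithelia, at 5.35, 4.66 and 3.17.

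Itgb2 had values of 10.32, 10.70 and 10.81 in irradiated cultures of experiments 1 to 3, against 10.51, 10.69 and 10.82 in their controls. Experiment 1 was lowest in both groups, and the groups overlapped (10.61 ± 0.26 in irradiated and 10.67 ± 0.16 in control cultures, SD, n = 3 each). The mean of the 9 macrophage markers was 11.73, 12.09 and 12.22 in irradiated cultures, against 11.86, 12.05 and 12.09 in controls, and it too was lowest in experiment 1 in both groups. In a bulk sample, fewer cells of a type and less RNA per cell cannot be told apart, and the part of macrophages in the leukocyte integrin values was not tested.

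Itgam had values of 7.40, 8.04 and 8.41 in irradiated cultures, against 7.51, 7.98 and 7.76 in their controls. The irradiated culture was 0.65 above its control in experiment 3 and within 0.11 of it in the others. In experiment 3 Itgax differed by 0.45, but Itgb2 by -0.01 and Itgal by 0.09. The 9 macrophage markers had differences from -0.28 (Cd53) to 0.79 (Cd14) there, both named after their values were seen, and their mean differed by 0.12. The groups overlapped, with a mean difference of 0.20 (SE 0.15, limma). Without experiment 3 the Itgam difference was -0.025 and that of Itgax -0.050. The control of experiment 3 stood apart in RNA quality, and its irradiated culture had the lowest 18S value (11.29). The part of either in these values was not tested. Itgal was at -0.36, -0.02 and 0.09 in the 3 experiments.

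**Figure D2:**
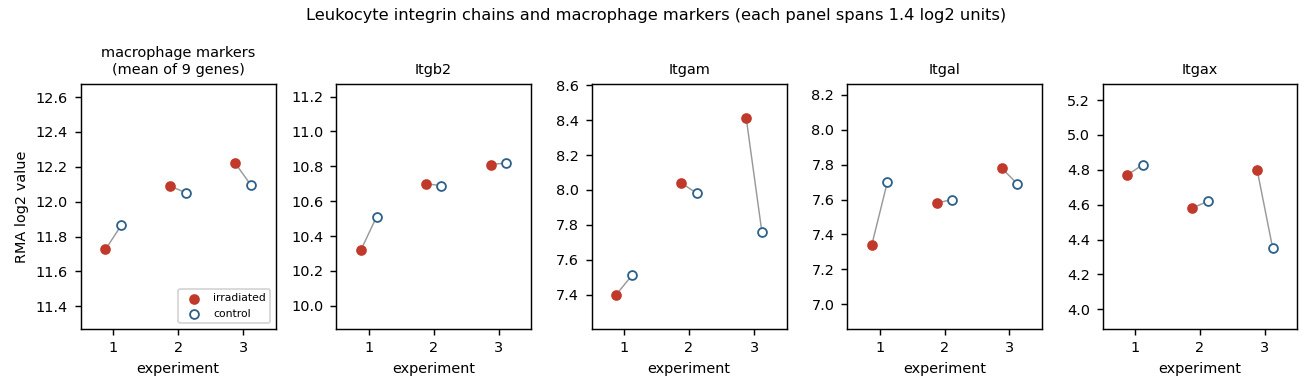
RMA log2 values (vertical axes, each spanning the same width) by experiment for the mean of 9 macrophage markers, Itgb2, Itgam, Itgal and Itgax, with irradiated cultures as filled red points and their own controls as open blue points joined by a line. Macrophage markers, Itgb2 and Itgam are lowest in experiment 1, and the widest gaps are those of Itgam and Itgax in experiment 3.

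The platelet chain Itga2b had values of 6.94, 6.87 and 6.77 in irradiated cultures, against 7.00, 6.94 and 6.98 in their controls. It was lower than its own control in every experiment, by 0.06 to 0.21, but the groups touched, with a tie at 6.94. Of the 3 measured platelet markers only Pf4 (11.65) was above the median gene, with Gp9 at 5.56 and Ppbp at 4.08.

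No integrin or laminin gene passed the test for irradiated against control cultures. Of the 34, 0 were called by limma, fitted with a term for each experiment, after Benjamini-Hochberg adjustment over all genes, at a smallest adjusted p of 0.995 among them, and 0% of all 18193 genes were called. At an unadjusted p under 0.05 it gave 0 members, against 3.31% of all genes (603). A paired test without moderation called 8 genes, of which 0 were members. The 95% intervals of all 34 differences lay within 1.5-fold in either direction, and from -0.53 to 0.55 log2 units in all. How many of all genes met this bound was not counted, so it sets the members apart from no other genes.

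As a description, 20 of 34 members had a mean difference above 0, or 58.8%, against 45.2% of all genes. Their median difference was 0.040 log2 units, where the median of all genes was -0.010, and the members' medians in experiments 1 to 3 were -0.010, 0.055 and 0.065, beside -0.030, -0.010 and 0 for all genes. The 16 members at or above the median gene level had a median of -0.050 when fitted with genes of that level alone. Irradiated cultures were higher than their own control in all 3 experiments for 7 members (20.6%, against 8.23% of all genes) and lower for 2 (5.88%, against 12.8%). The 7 were Itgav, Itgb1, Itga7, Itgb3, Itga2, Itgb4 and Itgae, of which only Itgav and Itgb1 were above the median gene, and the 2 were Itga9 and Itga2b. The smallest difference of the 7 in an experiment ran from 0.01 (Itgav and Itgb4) to 0.07 (Itga7). The second Itgae probe set was below 0 in every experiment (-0.02, -0.15 and -0.09), and that of Itgb3 differed by -0.18. The other Itgav probe sets differed by 0.080, -0.12, 0.19 and 0.11, and those of Itgb1 are given below.

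All irradiated arrays lay above all controls for 1 member (2.9% of all genes did) and below them for 0 members (5.36% of all genes). The 1 was Itga7, noted after its values were seen, with 5.24, 5.20 and 5.28 in irradiated cultures, against 5.17, 5.06 and 5.06 in controls. Its difference was 0.14 log2 units (SE 0.079, limma adjusted p 0.995), from a probe set below the median gene.

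Among receptor chains, Itgb1 had values of 10.77, 10.84 and 10.74 in irradiated cultures, against 10.74, 10.54 and 10.53 in their controls. No irradiated value was below the highest control, with a tie at 10.74, and the difference was 0.18 (0.03, 0.30 and 0.21 in experiments 1 to 3; SE 0.087, limma). The 2 next brightest Itgb1 probe sets had differences of 0.20 (level 10.42) and 0.16 (level 7.22), each above 0 in every experiment. The 3 others, at levels of 3.95 or lower, had differences of 0.060, 0.053 and -0.067.

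Its partner Itgav had values of 10.99, 10.90 and 10.87 in irradiated cultures, against 10.98, 10.74 and 10.74 in controls. The groups overlapped through the control of experiment 1, and the difference was 0.10 (SE 0.080, limma). Itgb5, which pairs with Itgav, went the other way on average, with 10.87, 10.76 and 10.81 in irradiated cultures against 11.05, 10.73 and 10.97 in controls, a difference of -0.10 (SE 0.084, limma). Its groups overlapped, and its 3 other probe sets, at levels of 10.09 to 10.36, had differences of -0.037, 0.013 and 0.070.

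Itga9 had the largest absolute difference of the 34, at -0.21 (SE 0.096, unadjusted p 0.064 in limma). Its values were 6.99, 7.25 and 7.46 in irradiated cultures, against 7.42, 7.36 and 7.56 in controls, and -0.43 of experiment 1 set it apart from -0.11 and -0.10 in the other experiments. The groups overlapped. Its dimmer probe sets had differences of -0.097 (level 5.98) and -0.063 (level 4.81). Itga8 had 7.00, 6.68 and 6.58 in irradiated cultures, against 7.16, 6.60 and 6.87 in controls, with a difference of -0.12 (SE 0.096, limma) and overlapping groups.

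The laminin receptor chain Itga6 had its widest gap in experiment 2. Its values were 9.16, 8.57 and 8.91 in irradiated cultures, against 9.17, 9.17 and 8.68 in controls, which made differences of -0.01, -0.60 and 0.23 and overlapping groups. The mean was -0.13 (SE 0.15, limma), and 0.11 without experiment 2. Its second probe set, at a level of 8.32, had 0.15, -0.86 and -0.04. In the same experiment the basement membrane collagens Col4a1 (-0.68) and Col4a2 (-0.62) and the fat-cell regulator Pparg (-0.55) were lower in the irradiated culture. These genes were set beside Itga6 after their values were seen. The other measured fat-cell markers differed less there, by -0.12 (Fabp4), -0.26 (Adipoq) and -0.12 (Lpl). Whether these differences are linked was not tested.

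**Figure D3:**
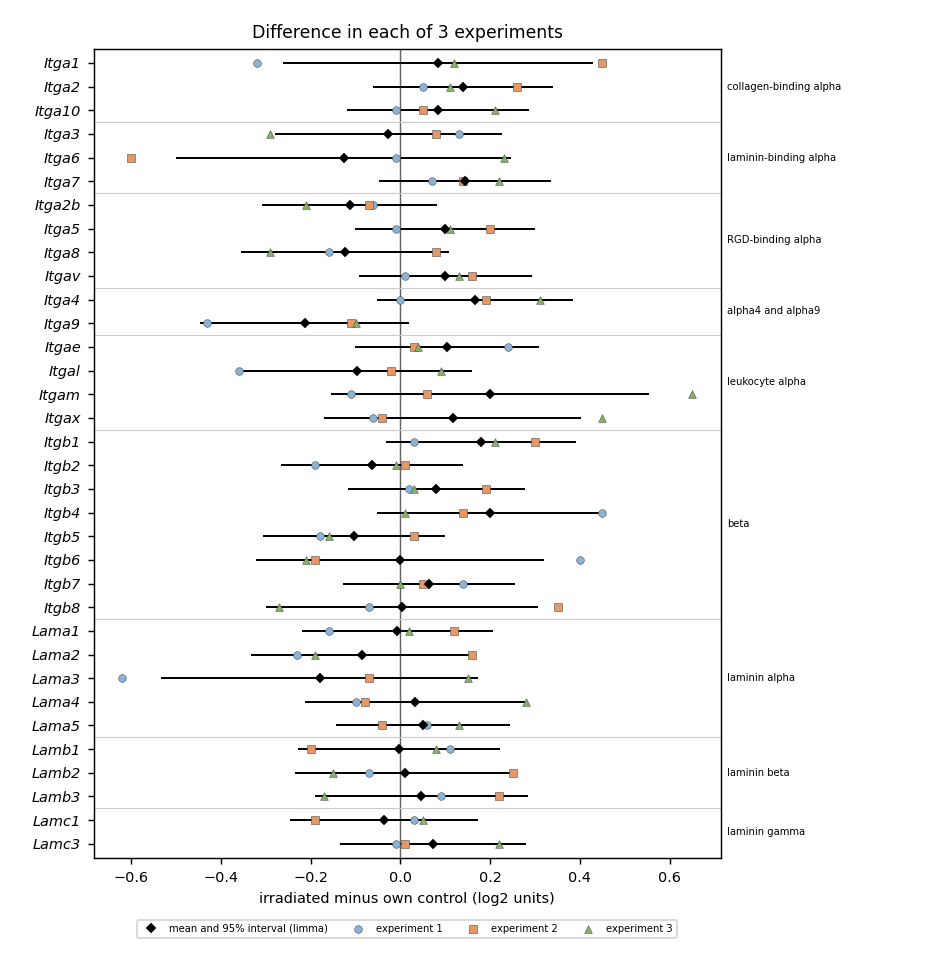
Irradiated minus own control in log2 units (horizontal axis) for the 34 genes in experiments 1 (circles), 2 (squares) and 3 (triangles), with the limma mean (diamond) and its 95% interval (bar). Every bar crosses 0, and single points farthest from 0 are Itgam in experiment 3 (0.65), Lama3 in experiment 1 (-0.62) and Itga6 in experiment 2 (-0.60).

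The laminins had small differences by their brightest probe sets with no common direction, 5 above 0 and 5 below it. The median absolute difference was 0.042 log2 units over the 10 laminins and 0.10 over the 24 integrins, against 0.063 over all genes, a description without a test. Lama4 had 8.91, 8.70 and 8.73 in irradiated cultures, against 9.01, 8.78 and 8.45 in controls, with a difference of 0.033 (SE 0.10, limma) and overlapping groups. Its second probe set, at a level of 3.82, differed by 0.21 (-0.16, 0.38 and 0.40 in experiments 1 to 3). Lamc1 had 7.68, 7.53 and 7.54 in irradiated cultures, against 7.65, 7.72 and 7.49 in controls, a difference of -0.037 (SE 0.087, limma) with overlap.

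Lamb1 differed by -0.0033 (SE 0.093, 95% interval -0.23 to 0.22, limma), and its 2 other bright probe sets, at levels of 10.05 and 9.04, by 0.027 and 0.037. Lama3 had 6.28, 6.58 and 6.87 in irradiated cultures, against 6.90, 6.65 and 6.72 in controls, a difference of -0.18 (SE 0.15, limma) with overlapping groups. Without experiment 1 it was 0.040, and its second probe set (level 4.18) differed by 0.23. The remaining laminins lay between -0.087 (Lama2) and 0.073 (Lamc3), with Lama5 at 0.050, Lamb3 at 0.047, Lamb2 at 0.010 and Lama1 at -0.0067.

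The integrins not yet given had differences between -0.097 and 0.20. Itgb4 stood at 0.20, Itga4 at 0.17, Itga2 at 0.14, Itgax at 0.12, and Itga5 and Itgae at 0.10. Itga1 and Itga10 stood at 0.083, Itgb3 at 0.080, Itgb7 at 0.063, Itgb8 at 0.0033, Itgb6 at 0, Itga3 at -0.027, Itgb2 at -0.063 and Itgal at -0.097. Of these Itga1, Itgb2 and Itgal alone were above the median gene. In all, 20 members had more than 1 probe set, and 21 of their 39 other probe sets had the sign of the brightest. The second Itgb6 probe set, at a level of 2.68, differed by -0.23 (-0.32, -0.13 and -0.25 in experiments 1 to 3). Its unadjusted p was 0.032 in limma fitted over all single-symbol probe sets.

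**Figure D4:**
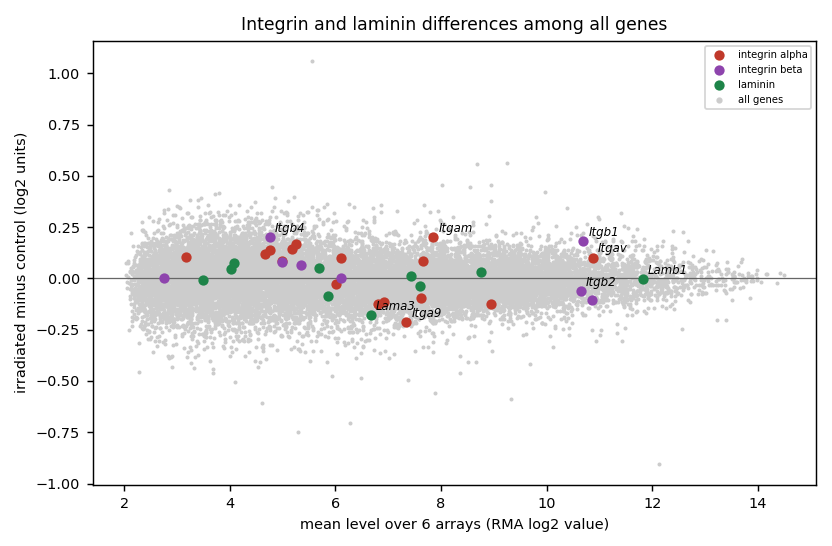
Mean level over the 6 arrays (horizontal axis, RMA log2 value) against irradiated minus control (vertical axis, log2 units) for 18193 genes (grey) and for integrin alpha chains (red), integrin beta chains (purple) and laminins (green). The 34 members lie between -0.21 and 0.20, inside the cloud of all genes.

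No member passed the test for differences between the 3 experiments either. limma's F test on the 3 experiments, with Benjamini-Hochberg adjustment, called 0 members and 0% of all genes, at a smallest adjusted p of 0.907 among members. The test without moderation called 8 genes, of which 0 were members. At an unadjusted p under 0.05 limma gave 5 of 34 members (14.7%), against 5.46% of all genes (994). They were Itga10, Itgb2, Itga8, Itgam and Itga2, named after their values were seen.

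Itga10 had 5.31, 5.08 and 4.71 in irradiated cultures of experiments 1 to 3, against 5.32, 5.03 and 4.50 in controls. Each irradiated culture was within 0.21 of its own control, while the means of the 3 experiments spanned 0.71 log2 units. Itgam spanned 0.63, Itga8 0.44 and Itgb2 0.40, each with experiment 1 apart from the other experiments. Itga2 had 4.76, 5.09 and 4.66 in irradiated cultures, against 4.71, 4.83 and 4.55 in controls, highest in experiment 2 in both groups, with a span of 0.35.

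**Figure D5:**
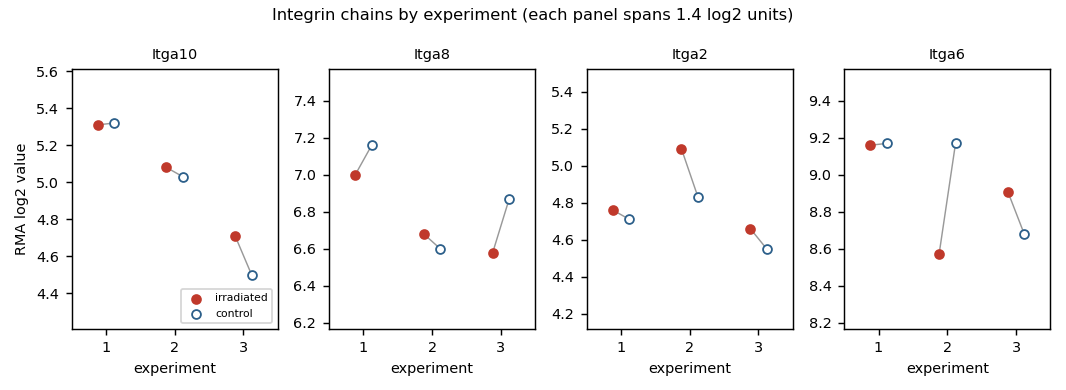
RMA log2 values (vertical axes, each spanning the same width) of Itga10, Itga8, Itga2 and Itga6 by experiment, with irradiated cultures as filled red points and their own controls as open blue points joined by a line. Paired points of Itga10 lie within 0.21 of each other while its experiments span 0.71, and Itga6 shows the gap of -0.60 in experiment 2.

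Genes that work with integrins and laminins were mostly bright and had no calls either. Of 53 listed partners 48 were measured, 41 of them at or above the median gene, and limma called 0 in either direction after Benjamini-Hochberg adjustment, with 25 above 0, 22 below 0 and a median difference of 0.0050, beside -0.010 for all genes. At an unadjusted p under 0.05 there was 1, Edil3, a secreted integrin ligand (unadjusted p 0.018, adjusted p 0.995 in limma).

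All 20 measured adaptors on the inner side of integrins were above the median gene, with differences from -0.16 to 0.16. Tln2, a talin that binds beta chain tails, stood at -0.16 (-0.22, -0.12 and -0.14 in experiments 1 to 3). Lims1, or PINCH, which joins integrin-linked kinase to adaptors, stood at 0.16 (0.18, 0.14 and 0.15), and Parvb, an actin-binding parvin, at -0.13.

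Of 11 other integrin ligands 8 had a mean difference above 0, with a median of 0.16, against 45.2% of all genes. Their medians in experiments 1 to 3 were -0.07, 0.12 and 0.09. Edil3 stood at 0.30 (0.36, 0.46 and 0.09), Npnt, or nephronectin, which binds Itga8, at 0.24 (-0.12, 0.78 and 0.06), and Thbs1, thrombospondin, at 0.18 (-0.10, 0.42 and 0.21). All 3 had their highest difference in experiment 2, and Edil3 alone of them was above 0 in every experiment.

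Of 8 basement membrane partners of laminins 7 had a mean difference below 0, with a median of -0.070. Among all 18193 genes 9689 were below 0. The direction varied between experiments. Those above 0 numbered 4, 1 and 6 of the 8 in experiments 1 to 3, with medians of -0.02, -0.14 and 0.065. Col4a1 stood at -0.18 (0.08, -0.68 and 0.06), Col4a2 at -0.12 (0.13, -0.62 and 0.13) and Nid1, nidogen, which links laminin to collagen, at -0.050 (0.18, -0.19 and -0.14). For both collagens only experiment 2 was below 0.

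Among 9 other laminin receptors and integrin partners 3 were above 0 and 5 below it. The tetraspanin Cd9, which associates with integrins, stood at 0.19 (-0.09, 0.37 and 0.29), and the syndecans Sdc2 and Sdc1, cell surface proteoglycans, at 0.17 (-0.18, 0.44 and 0.26) and 0.14 (0.24, 0.24 and -0.05). None of these 3 genes had the same sign in all 3 experiments.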

How the data were processed

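The authors deposited 1 log2 expression value per probe set and array, made with RMA (background correction, quantile normalization between arrays, probe summary). RMA is named per the submitters' processing notes, without a version. The log base is not stated, and the values were taken as log2 from their range. Quantile normalization hides a change common to all transcripts, and RMA tends to understate changes of dim probe sets. Detection calls were not used here, so no gene is called absent.

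Of 45101 probe sets 64 were array controls, and 34945 had 1 symbol in the platform annotation, of which 34741 were matched by Entrez identifier with 0 symbols changed. The brightest probe set stood for each of 18193 genes, with no filter on dim ones.

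The test was limma 3.58.1 in R 4.3.3 (lmFit, eBayes), irradiated minus control with the experiment as a block, and an F test on the experiments, with Benjamini-Hochberg adjustment over all genes and a threshold of 0.05. Pairing comes from the series' design text. Deviations of paired arrays from their group means correlated at 0.15, -0.090 and -0.012 over genes. An exact sign-flip test on 3 pairs cannot go below p = 0.25, so no such test was run. The fit was tested on simulated data. Members and gene lists were chosen with earlier results of these data known. All 34 members are named. Values on all arrays are given for the 8 with the largest difference at or above the median level, and for Itgb1, Itgav, Itgb2, Itgam, Lamc1 and Lama4. Those of Itga7, Itga10 and Itga2 were added after their values were seen. Up to 3 partners per list and the brightest and dimmest marker per list are named, and the platelet list is given in full. Alternatives covered the block, each experiment left out, probe set choice, a filter on dim genes, centring, eBayes with a trend and no moderation.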

Additional observations from a re-analysis of the deposited data

How the results depend on the processing

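Over all settings run, limma and the paired test without moderation called 0 integrin or laminin genes, for irradiation and for differences between experiments. The paired test without moderation called 8 genes in all for irradiation and 8 for differences between experiments, while limma with a trend called 2 genes, and 1 each with the mean of all probe sets, with arrays centred on their median or at or above the median level, for differences between experiments. Without the replicate block limma also called 0 genes for irradiation (649 at an unadjusted p under 0.05), and the block changed no other call. Members at an unadjusted p under 0.05 in limma numbered 0 to 1 with an experiment left out, 1 with a trend and 1 at or above the median level. These were Itgb1 without experiment 1 (p 0.0478 in limma) and with a trend (0.0372), and Itga9 at or above the median level (0.0485). The members' median difference was -0.050 at or above the median level, where only 16 of 34 are left, and 0.015 to 0.060 with an experiment left out. The sign of the difference changed in 5, 8 and 6 of 34 members without experiment 1, 2 or 3, in 5 with the mean of all probe sets and in 3 with centred arrays; the cause was not tested. Dim members such as Itgb6 and Itgae limit what can be seen, since RMA tends to understate their changes.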
